A study of Homo sapiens with 6 samples.

Results

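The EGF receptor family consists of the receptor tyrosine kinases EGFR, ERBB2, ERBB3 and ERBB4, and the genes described here are these 4 receptors with 6 of the ligands that bind EGFR, namely TGFA, EREG, AREG, HBEGF, BTC and EPGN. The members were listed by symbol. Each was represented by its brightest probe set annotated with that symbol alone, and 9 of the 10 had such a probe set, 1 each, among 18417 genes in all. AREG, which encodes amphiregulin, had none and is not analysed here. RNA was profiled on Affymetrix HuGene arrays, 3 for MCF10A-SNAI1 cells and 3 for MCF10A cells. MCF10A is a human breast epithelial line that grows without limit but does not form tumors, and MCF10A-SNAI1 cells stably express SNAI1, a zinc finger repressor that drives epithelial-mesenchymal transition. They were transfected with a SNAI1-Flag plasmid under a CMV enhancer and chicken beta-actin promoter and then selected with puromycin, whereas the MCF10A cells were untransfected. Plasmid, selection and separate history of the line therefore cannot be told apart from SNAI1 in this comparison, and the sources used here do not say whether the line is a single clone. Both lines are listed with mammary epithelial growth medium plus cholera toxin.

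The EGFR ligands are made as precursors anchored in the plasma membrane and are released by metalloproteases of the ADAM family. A bound ligand brings receptors together as dimers, which signal through RAS and ERK and through PI3K and AKT. ERBB2 has no known soluble ligand and acts as a partner in dimers, ERBB3 has little kinase activity of its own, and ERBB3 and ERBB4 bind neuregulins. Mammary epithelial cells such as MCF10A depend on EGF receptor signaling to proliferate, and they make several of its ligands themselves.

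The deposited log2 values had array medians between 6.04 and 6.09. Pearson's r across probe sets was 0.995 to 0.996 between arrays of the same line, and between lines it was 0.977 to 0.978. SNAI1 itself lay between 10.50 and 10.53 in MCF10A-SNAI1 cells and between 5.73 and 5.80 in MCF10A cells. Averaged over 9 mammary epithelial markers, arrays lay at 7.97 to 8.12 in MCF10A-SNAI1 and at 10.62 to 10.66 in MCF10A, with 6 of the markers called lower, and over 12 mesenchymal markers at 9.61 to 9.63 and 7.01 to 7.12, with 8 called higher. Among the other epithelial markers KRT8 went the other way, at a log2 fold change of 0.95, just under 2-fold. KRT18 and KRT19 were not called, at -0.65 and -0.19. The mesenchymal markers VIM, THY1, PDGFRB and TWIST1 were not called, at 0.06, 0.08, 0.40 and 0.47. Of 6 endothelial markers none was called (array means 5.10 to 5.21 in MCF10A-SNAI1, 5.12 to 5.20 in MCF10A), and of 6 leukocyte markers CD14 was, at a log2 fold change of 1.03, with CD68 at 0.99 just under 2-fold (array means of the list 5.28 to 5.35 in MCF10A-SNAI1, 4.97 to 5.01 in MCF10A). The part of this shift in cell identity in the changes below was not tested, and in bulk RNA fewer expressing cells and less RNA per cell cannot be told apart. A gene was called at an adjusted p below 0.01 from limma (Benjamini-Hochberg over all probe sets) and a change of more than 2-fold, the study's thresholds. By this rule 5.64% of all genes were called, 2.54% lower and 3.1% higher in MCF10A-SNAI1 cells. Each log2 fold change below is MCF10A-SNAI1 minus MCF10A.

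Ligand genes made up the changes, and no receptor gene was among them. TGFA, EREG and HBEGF were 4.89-fold to 7.16-fold lower in MCF10A-SNAI1 cells, EPGN was lower but under 2-fold, and BTC and the 4 receptors did not pass the test. Thus 3 of the 9 members were called, all of them lower, against 2.54% of all genes in that direction. All 9 members had a lower mean in MCF10A-SNAI1 cells, as did 52.6% of all genes, and for 7 of the 9 the arrays of the lines did not overlap, which held for 48.3% of all genes. The SD over 3 arrays of a line was between 0.0121 and 0.184 for these genes.

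**Figure D1:**
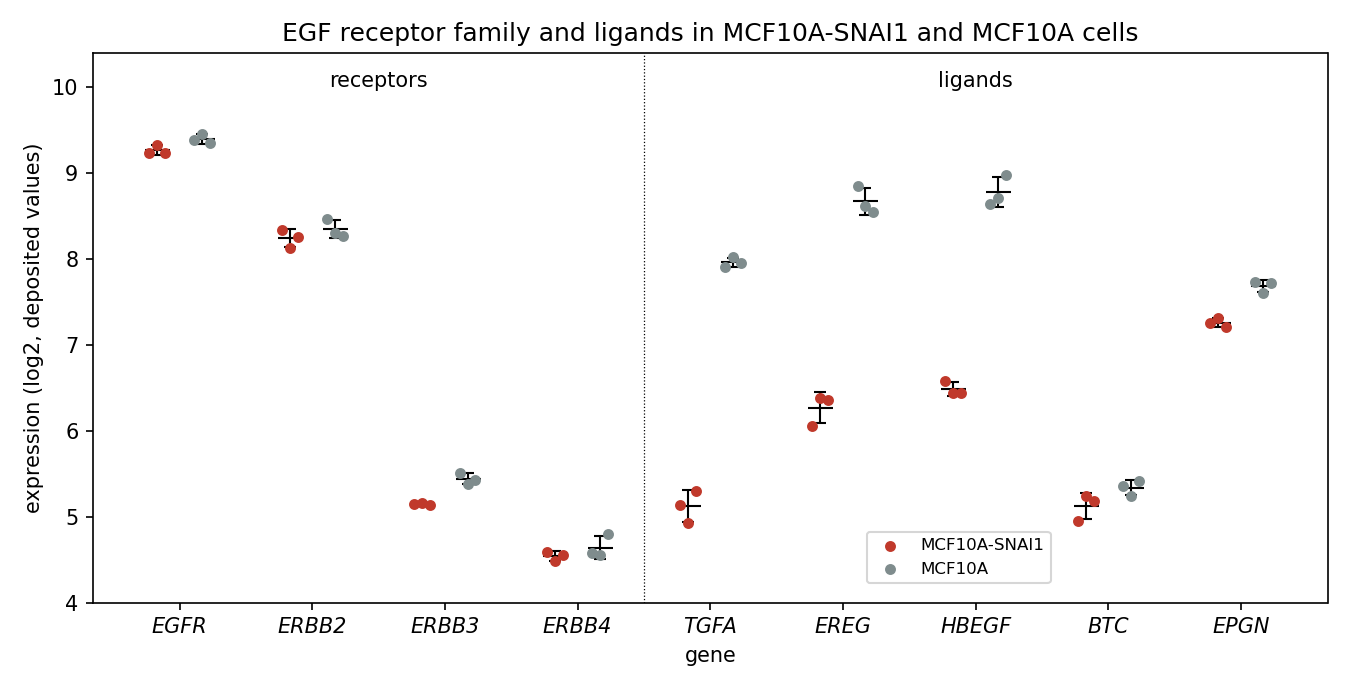
Deposited log2 values (vertical axis) of the 9 measured genes of the EGF receptor family, with a point per array for MCF10A-SNAI1 (red, left of each pair) and MCF10A (grey, right), black bars for the mean and SD (n = 3 arrays). The arrays of TGFA, EREG and HBEGF lie far apart between the lines, whereas those of EGFR, ERBB2, ERBB3 and ERBB4 lie close together.

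TGFA encodes transforming growth factor alpha, a ligand of EGFR that many epithelial cells make for themselves. Its log2 values were 5.14, 4.93 and 5.30 in the 3 MCF10A-SNAI1 arrays, against 7.91, 8.02 and 7.95 in the MCF10A arrays. Every MCF10A-SNAI1 array lay more than 2 log2 units below every MCF10A array. The log2 fold change was -2.84 with a 95% interval of -3.08 to -2.60 (limma, adjusted p = 3.20e-06), which put TGFA at number 67 from the lowest among the 18417 genes. In MCF10A 74.2% of all values on the arrays lay below the mean of TGFA, and in MCF10A-SNAI1 36.6% did. The table holds no detection calls, so a level at background in MCF10A-SNAI1 cells could not be recognized, and the fold would then be a lower limit.

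EREG encodes epiregulin, which binds EGFR and ERBB4. The MCF10A-SNAI1 arrays gave 6.06, 6.39 and 6.36 for it, and the MCF10A arrays 8.85, 8.62 and 8.55. The groups did not overlap, and EREG varied about as much among the arrays of either line (SD 0.18 in MCF10A-SNAI1 and 0.16 in MCF10A). Its log2 fold change of -2.41 had a 95% interval of -2.69 to -2.12 (limma, adjusted p = 1.58e-05).

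HBEGF encodes heparin-binding EGF-like growth factor, which also binds both EGFR and ERBB4 and in humans serves as the diphtheria toxin receptor. It was at 6.58, 6.44 and 6.44 in MCF10A-SNAI1 cells, against 8.64, 8.72 and 8.98 in MCF10A cells. The MCF10A arrays spread more widely here (SD 0.18) than the MCF10A-SNAI1 arrays (SD 0.077), with a gap between the lines many times either spread. The log2 fold change was -2.29 with a 95% interval of -2.53 to -2.05 (limma, adjusted p = 8.94e-06). For each member an exact two-sided permutation test over the arrays could not give a p below 0.1, the smallest that 3 arrays against 3 allow, and it gave 0.1 for all 7 members whose arrays did not overlap, called or not.

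The other measured ligands differed by less than 2-fold. EPGN, which encodes epigen, a low-affinity ligand of EGFR, was at 7.26, 7.31 and 7.21 in MCF10A-SNAI1 cells and at 7.74, 7.60 and 7.72 in MCF10A cells. Its arrays did not overlap between the lines, and the 1.34-fold difference (log2 fold change -0.43, 95% interval -0.58 to -0.27, limma adjusted p = 0.0031) passed the p threshold but not the fold threshold. Over its 15 alternatives the adjusted p of EPGN lay between 5.70e-04 and 0.0168, so that the pass was lost in some of them, among them the methods' t-test and the fit with the replicate number as a block. At any fold, 23.2% of all genes had an adjusted p below 0.01. BTC, which encodes betacellulin, gave 4.95, 5.24 and 5.18 in MCF10A-SNAI1 cells against 5.36, 5.24 and 5.41 in MCF10A cells. Its highest MCF10A-SNAI1 array and its lowest MCF10A array coincided to within rounding, and its log2 fold change of -0.22 (95% interval -0.44 to 0.01, limma adjusted p = 0.167) did not pass the test.

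SNAI1 binds the E-box CAGGTG, as do its relative SNAI2 and the ZEB factors, so the RefSeq promoter windows of the members (GRCh38.p14) were searched for these letters on both strands, which adds the reverse complement CACCTG. Of the 10 members, 9 had a window. In the 250 bases upstream of the annotated start the letters were found for TGFA, EREG, HBEGF, BTC and AREG, and not for EGFR, ERBB2, ERBB4 and EPGN. They occur in such a window of 20.6% of the 27305 genes with a window, and in 17.5% of the 35116 windows. The upstream stretches of EREG and HBEGF, called lower and each with 1 match, are shown whole, 5′ to 3′ on the gene's strand, with the E-box in capitals:
EREG, chr4:74364895-74365144, plus strand: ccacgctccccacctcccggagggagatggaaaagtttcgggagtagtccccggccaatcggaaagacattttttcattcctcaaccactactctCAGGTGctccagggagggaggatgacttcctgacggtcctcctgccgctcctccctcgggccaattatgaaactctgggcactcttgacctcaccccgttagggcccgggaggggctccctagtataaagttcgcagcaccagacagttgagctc
HBEGF, chr5:140346604-140346853, minus strand: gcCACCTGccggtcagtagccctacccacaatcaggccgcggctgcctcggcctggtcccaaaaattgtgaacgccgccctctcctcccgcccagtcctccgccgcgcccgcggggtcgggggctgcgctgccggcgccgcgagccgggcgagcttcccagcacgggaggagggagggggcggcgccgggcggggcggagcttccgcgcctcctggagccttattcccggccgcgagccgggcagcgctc

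The E-box of EREG began 155 bases and that of HBEGF 248 bases before the start. For the other 3 ligands the 30 bases around the match are given, since they set a gene called lower (TGFA) beside a gene that was not called (BTC) and a neighbour of EREG that is not analysed here (AREG):
TGFA, chr2:70553471-70553500, minus strand: cgtgcgtgagaaCACCTGggaaggggaagc
BTC, chr4:74794699-74794728, minus strand: tgaacagtcagtCAGGTGagacccagcagg
AREG, chr4:74445105-74445134, plus strand: cctataaagcggCAGGTGcgcgccgcccta

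The TGFA match belonged to the second of its 2 annotated starts and lay 42 bases before it, the BTC match lay 193 bases and the AREG match 19 bases before the start. The letters were thus present both in ligand genes that were called lower and in BTC, which was not called. BTC was already dim in MCF10A cells, at a mean of 5.34 with 39.7% of all values below it. A fall as large as that of the called ligands might therefore not be visible for BTC. A match describes the sequence only, and no binding was measured.

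None of the receptors was called. EGFR, the receptor of all 6 ligands, was at 9.24, 9.33 and 9.23 in MCF10A-SNAI1 cells and at 9.39, 9.45 and 9.35 in MCF10A cells. The lines did not overlap, but by a margin smaller than the spread within a line, and the estimated ratio of MCF10A-SNAI1 to MCF10A had a 95% interval of 0.823 to 1.01 (log2 fold change -0.13, limma adjusted p = 0.219). A change of EGFR RNA as large as that of TGFA, EREG or HBEGF thus lay well outside the interval. ERBB2, the partner receptor, gave 8.34, 8.13 and 8.26 in MCF10A-SNAI1 cells against 8.47, 8.30 and 8.27 in MCF10A cells, with overlapping arrays and an interval of the ratio of 0.811 to 1.07 (log2 fold change -0.10, limma adjusted p = 0.488).

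ERBB3 had the largest difference among the receptors. It was at 5.15, 5.15 and 5.13 in MCF10A-SNAI1 cells and at 5.51, 5.39 and 5.43 in MCF10A cells, without overlap, which is a 1.23-fold lower level (log2 fold change -0.30, 95% interval -0.44 to -0.15, limma adjusted p = 0.0112) that missed both thresholds. ERBB4 gave 4.59, 4.48 and 4.56 in MCF10A-SNAI1 cells against 4.57, 4.56 and 4.79 in MCF10A cells. Its arrays overlapped and its log2 fold change was -0.10 (95% interval -0.29 to 0.10, limma adjusted p = 0.514). Of all values on the arrays, 37.0% lay below the mean of ERBB3 and 28.6% below that of ERBB4 in MCF10A-SNAI1 cells, against 41.2% and 29.9% in MCF10A cells. Probe sets differ in how strongly they bind, so these positions do not order the receptors by abundance.

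**Figure D2:**
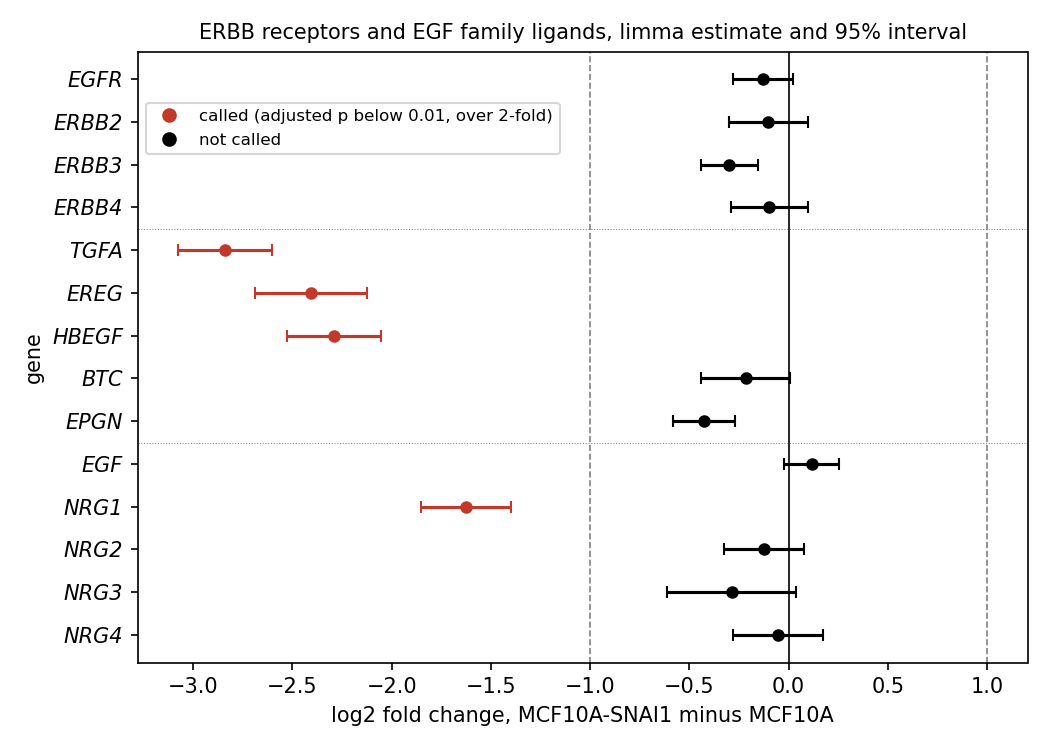
Log2 fold change (horizontal axis, MCF10A-SNAI1 minus MCF10A) with its 95% interval from limma for the receptors (top), the measured EGFR ligands among the members (middle) and EGF with the neuregulins (bottom). Called genes are red, the dashed lines mark 2-fold, and TGFA at -2.84, EREG at -2.41, HBEGF at -2.29 and NRG1 at -1.63 lie beyond the lower one.

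Outside the members, EGF itself and the neuregulins, the ligands of ERBB3 and ERBB4, were measured with 5 genes. Only NRG1, neuregulin 1, was called. It was at 6.16, 6.05 and 5.91 in MCF10A-SNAI1 cells, against 7.53, 7.78 and 7.70 in MCF10A cells, with no overlap and a 3.09-fold lower level (log2 fold change -1.63, 95% interval -1.85 to -1.40, limma adjusted p = 3.57e-05). EGF, NRG2, NRG3 and NRG4 did not pass the test, at log2 fold changes of 0.12, -0.12, -0.29 and -0.05. Among the receptors for NRG1, ERBB3 and ERBB4 were not called, as given above.

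EPGN, EREG, AREG and BTC lie beside each other on chromosome 4. Within this cluster EREG was called lower at -2.41 while EPGN on one side and BTC on the other stayed under 2-fold at -0.43 and -0.22. The differences between these genes were not tested, though the 95% interval of EREG, ending at -2.12, lay below those of EPGN and BTC, starting at -0.58 and -0.44. In MCF10A cells the mean of BTC was 5.34, against 8.67 for EREG, so a fall of that size might not be visible for BTC. Of all genes 2.54% were called lower, and of the 10 nearest genes measured, 5 on each side, 2 were, both on the EPGN side. These were MTHFD2L, a mitochondrial folate enzyme, at 6.15, 6.31 and 6.27 in MCF10A-SNAI1 and 7.22, 7.36 and 7.31 in MCF10A (log2 fold change -1.05, limma adjusted p = 7.20e-05), and CXCL2, a neutrophil-attracting chemokine, at 5.21, 5.66 and 5.16 in MCF10A-SNAI1 and 7.53, 7.19 and 7.08 in MCF10A (log2 fold change -1.93, limma adjusted p = 2.14e-04). The chemokine genes CXCL3 and CXCL5 near CXCL2 were not called, at -0.22 and -0.17. Their means in MCF10A cells were 5.68 and 5.74, against 7.27 for CXCL2, so a fall as large as that of CXCL2 might not be visible. On the BTC side none of the 5 neighbours was called, and PARM1, the nearest, was higher under 2-fold at 0.44.

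**Figure D3:**
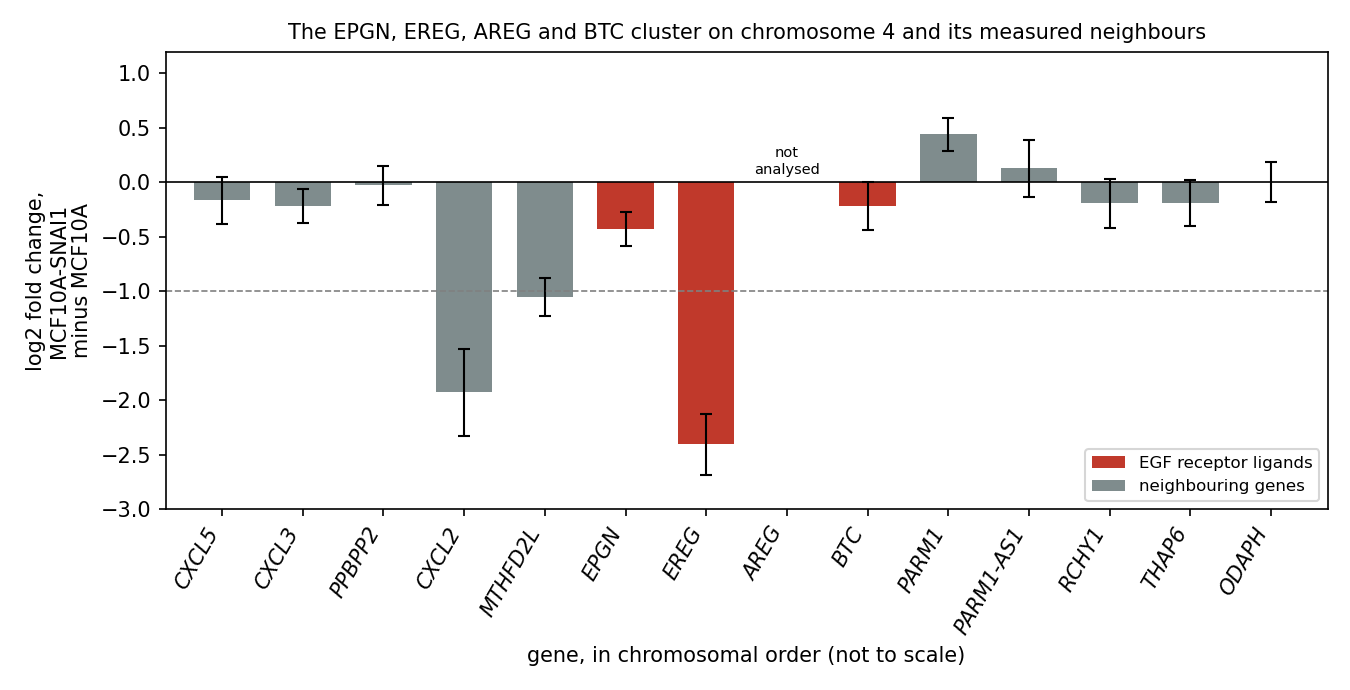
Log2 fold change (vertical axis, MCF10A-SNAI1 minus MCF10A) with its 95% interval from limma for the ligand genes of the chromosome 4 cluster (red) and the 5 nearest measured genes on each side (grey), in chromosomal order and not to scale. EREG at -2.41, CXCL2 at -1.93 and MTHFD2L at -1.05 pass the dashed 2-fold line, and AREG is not analysed.

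RNAs of genes that act in the release of the ligands differed in both directions. Of 16 measured genes of ligand shedding and trafficking, 1 was called higher and 2 lower, a further 4 (higher) and 3 (lower) met the p threshold while under 2-fold, and the median log2 fold change was -0.19 (all genes: -0.01). The share called was 18.75%, a count of 3 genes, against 5.64% of all genes. At any fold, 23.2% of all genes met the p threshold. ADAM12, a metalloprotease that can cleave HBEGF, rose to 6.77 ± 0.083 in MCF10A-SNAI1 cells, against 5.32 ± 0.072 in MCF10A cells (SD, n = 3 each; log2 fold change 1.45, limma adjusted p = 1.58e-05). ADAM17, the main sheddase of TGFA, EREG, HBEGF and AREG, was at 8.42 ± 0.074 in MCF10A-SNAI1 and 8.84 ± 0.16 in MCF10A and did not pass (log2 fold change -0.41, limma adjusted p = 0.0185). TIMP3, an inhibitor of ADAM17, fell to 6.09 ± 0.11 in MCF10A-SNAI1 cells, against 8.65 ± 0.32 in MCF10A cells (log2 fold change -2.56, limma adjusted p = 4.40e-05). With the mean of its probe sets in place of the brightest, the log2 fold change of TIMP3 was -1.78.

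The iRhom genes, whose products carry ADAM17 to the cell surface, diverged. RHBDF2 was called lower, at 6.17, 6.27 and 6.08 in MCF10A-SNAI1 cells and 7.49, 7.37 and 7.40 in MCF10A cells (log2 fold change -1.25, limma adjusted p = 3.41e-05). RHBDF1 was at 8.78, 8.63 and 8.73 in MCF10A-SNAI1 cells and 7.91, 7.73 and 7.68 in MCF10A cells, higher but under 2-fold (log2 fold change 0.94, limma adjusted p = 2.25e-04). ADAM9 and nardilysin, NRDC, which promotes the shedding of HBEGF, lay just under 2-fold, each at 0.99. The count of 3 called genes was therefore 6 without MCF10A-SNAI1 replicate 1, which added ADAM9, NRDC and ADAM19 at 1.03, 1.02 and -1.01, and 5 without MCF10A replicate 2, which added ADAM9 and NRDC. It was 2 when only probe sets with a mean above the median of all values were kept, which removed ADAM12.

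Among genes that restrain or relay the receptor signal, the share called was near the 5.64% of all genes, at 5.26% of the inhibitor list and 3.33% of the transducer list. Of 19 measured receptor inhibitors and genes of receptor degradation, CBLC alone was called, a CBL-family ubiquitin ligase of epithelial cells, at 5.94, 5.91 and 6.01 in MCF10A-SNAI1 and 7.35, 7.10 and 6.91 in MCF10A (log2 fold change -1.17, limma adjusted p = 3.55e-04). Another 4 genes of this list were higher and 2 lower under 2-fold. SOCS5, which promotes the degradation of EGFR, was at 0.98 and became a second called gene at 1.01 without MCF10A-SNAI1 replicate 1. ERRFI1, which encodes the EGFR inhibitor MIG6, was at 0.15 and not called (limma adjusted p = 0.157).

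Of 30 measured adaptors and signal transducers, EPS8 alone was called, and the median log2 fold change of the list was 0.00. EPS8, a substrate of EGFR that organizes actin, was at 10.45, 10.43 and 10.38 in MCF10A-SNAI1 cells, against 8.67, 8.75 and 8.73 in MCF10A cells (log2 fold change 1.70, limma adjusted p = 3.14e-06). The adaptor SHC1 and the kinase MAPK3 were higher under 2-fold, at 0.82 and 0.58, and HRAS and MAP2K1 lower, at -0.69 and -0.72. In all, 5 genes of this list were higher and 7 lower under 2-fold, and 17 did not pass the p threshold.

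**Figure D4:**
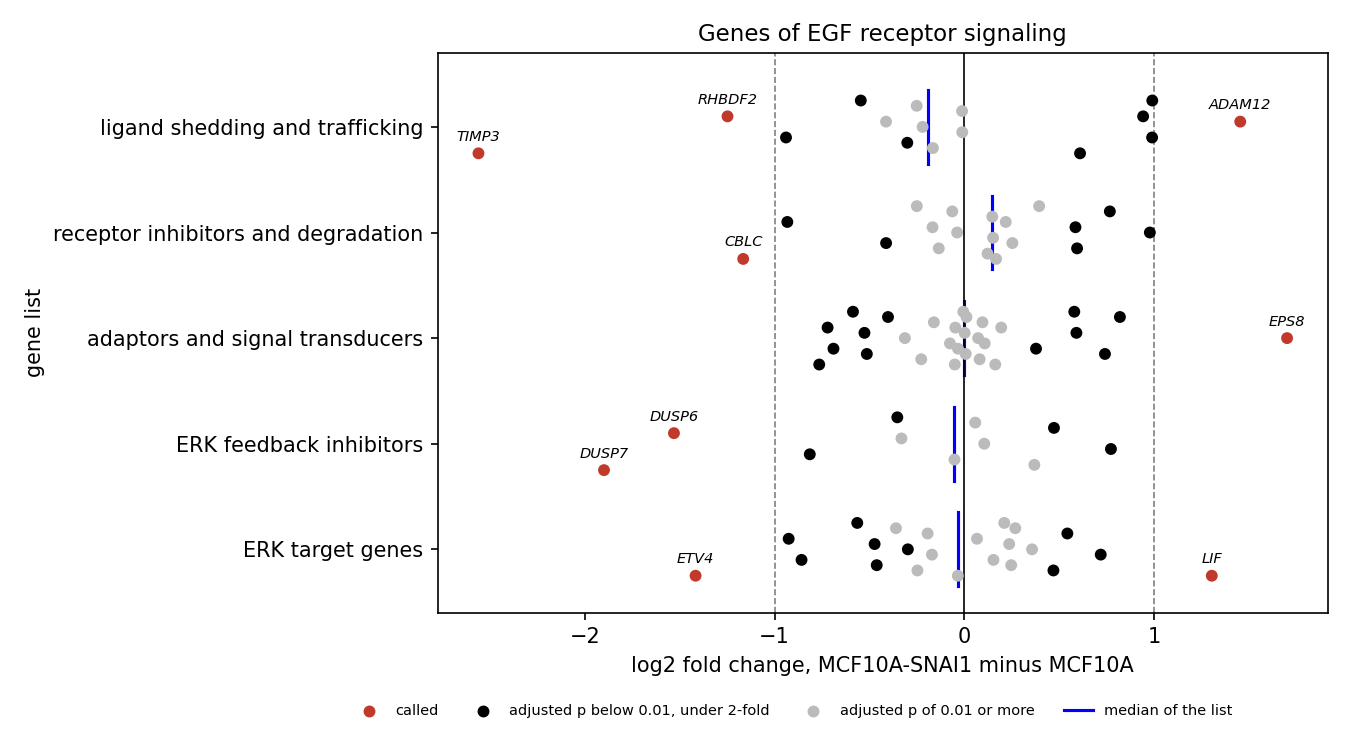
Log2 fold change (horizontal axis, MCF10A-SNAI1 minus MCF10A) of every measured gene in 5 lists of EGF receptor signaling, with called genes in red and named, genes that met the p threshold while under 2-fold in black, the others in grey and the median of each list in blue. The dashed lines mark 2-fold, the medians lie between -0.19 and 0.15, and EPS8 at 1.70 and TIMP3 at -2.56 lie farthest out. Vertical position within a list has no meaning.

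Genes listed as ERK feedback inhibitors or ERK targets lay on both sides of 0. Of 11 measured ERK feedback inhibitors, 2 were called lower and none higher. These were the ERK phosphatases DUSP7, at 8.32, 8.46 and 8.41 in MCF10A-SNAI1 and 10.29, 10.32 and 10.27 in MCF10A (log2 fold change -1.90, limma adjusted p = 2.57e-06), and DUSP6, at 8.93, 8.85 and 8.88 in MCF10A-SNAI1 and 10.41, 10.41 and 10.43 in MCF10A (log2 fold change -1.53, limma adjusted p = 4.18e-06). The Sprouty genes SPRY2 and SPRY4 were not called, at 0.06 and 0.10, and in all 2 genes of the list were higher and 2 lower under 2-fold. These were SPRY1 at 0.77 and SPRED1 at 0.47, and DUSP4 at -0.81 and SPRED2 at -0.35.

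Of 23 measured ERK target genes, 1 was called lower, 1 higher, and another 6 were lower and 3 higher under 2-fold. The ETS factor ETV4 fell to 6.92 ± 0.12 in MCF10A-SNAI1 cells, against 8.34 ± 0.027 in MCF10A cells (log2 fold change -1.42, limma adjusted p = 2.09e-05), while its relative ETV5 was at 0.15 and not called. The cytokine gene LIF rose to 7.60 ± 0.15 in MCF10A-SNAI1 cells, against 6.30 ± 0.19 in MCF10A cells (log2 fold change 1.30, limma adjusted p = 2.43e-04). The immediate-early genes FOS and EGR1 lay on opposite sides, at -0.86 and 0.72. The medians of the feedback and target lists were -0.05 and -0.03, close to that of all genes, and the 5.64% of all genes called compares with 18.2% and 8.70% of these lists, which are counts of 2 genes each.

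For each called member the 2 genes with the most similar profile over the 6 arrays were sought, by Euclidean distance after centring each gene on its MCF10A mean. For TGFA these were COBLL1 and FST, the activin antagonist follistatin, at distances of 0.179 and 0.21 log2 units. For EREG they were SERPINA1, which encodes alpha-1 antitrypsin, and DPYSL3 (0.265 and 0.284), and for HBEGF the basal keratin KRT5 and the Notch target HES1 (0.213 and 0.25). All 6 were called lower, with log2 fold changes between -2.89 and -2.23. Since the arrays form only 2 lines, the distance mainly ranks genes by the size of the difference between them.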

How the data were processed

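Total RNA of 3 MCF10A-SNAI1 and 3 MCF10A cultures, called biological replicates by the submitters, was hybridised to Affymetrix HuGene arrays. The table deposited by the authors holds 33297 probe sets as log2 values. Its methods give GC RMA in GeneSpring GX, the submitters' processing notes give MAS5, GCOS and Affymetrix Expression Console 1.1, and none of these sources says which produced the table. No detection calls came with it, and its background correction could not be varied, which matters most for dim genes. The number of arrays limits the precision.

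Of the probe sets, 19460 had 1 symbol, 1754 several and 12083 none in the annotation used. The deposited values were compared without further normalization or filter in R 4.3.3 with limma 3.58.1 (linear model by line, empirical Bayes, Benjamini-Hochberg over all probe sets), tested on simulated data. Promoter windows came from RefSeq and were searched with Python 3.11.15.

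Named genes were the members, SNAI1, EGF and the neuregulins, up to 4 called genes per direction and list, neighbours of the chromosome 4 cluster and nearest profiles. Other named genes were chosen after their values were seen. Members and lists were chosen with earlier results of these data known. P-values measure the spread between these arrays. Alternatives were quantile normalization, median centring, a block for the replicate number, leaving out each array, filters above the 20th percentile and the median, robust moderation with a trend, no fold threshold, the methods' t-test and the mean of a gene's probe sets.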

Additional observations from a re-analysis of the deposited data

How the results depend on the processing

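TGFA, EREG and HBEGF were called lower under all 15 alternatives, with log2 fold changes of -2.93 to -2.74, -2.47 to -2.30 and -2.36 to -2.19 and adjusted p of at most 0.0021. No member was called higher under any of them. For TGFA, EREG and HBEGF, dropping the fold threshold could not remove a call. The mean of a gene's probe sets left their values unchanged, since each member had 1 probe set. Neither alternative therefore adds support to their calls. No receptor was called, and the adjusted p of ERBB3 lay between 0.00365 and 0.0456 over its 14 alternatives at a log2 fold change of -0.33 to -0.26. Without a fold threshold EPGN was also called, at -0.43 (adjusted p = 0.0031 from limma), and the genes called numbered 4279 in all, 10 in shedding and trafficking, 7 in receptor inhibitors, 13 in adaptors, 6 in ERK feedback and 11 in ERK targets, by the construction of that alternative. The adjusted p of EPGN was above 0.01 with the replicate number as a block (0.0168), in the methods' t-test (0.0106) and without MCF10A-SNAI1 replicate 1 (0.0107) or 3 (0.0162) or MCF10A replicate 1 (0.0148) or 3 (0.0165). Leaving out each array gave 3 to 6 called shedding genes and 1 to 2 called receptor inhibitors. With the filter above the median 2 shedding genes were called, since ADAM12 was removed. The filter above the median removed some dim genes, BTC, ERBB3, ERBB4 and ADAM12 among them, so they have no value there. It used the mean over all 6 arrays. TGFA passed it only through MCF10A, where its mean was 7.96. In MCF10A-SNAI1 cells the mean was 5.12, under the median of 6.05. The call of TGFA under this filter therefore adds no support. The methods' t-test called 935 genes, against 1038 with limma. Same-numbered arrays did not deviate together in every pair (r = 0.115, 0.122 and -0.00618 across probe sets, and MCF10A-SNAI1 replicate 3 was closest to MCF10A replicate 2), so the numbers are not taken to pair them. With the replicate number as a block, 1028 genes were called, and 3 members. Values in the lower part of the range limit what can be said of ERBB3, ERBB4, BTC and of TGFA in MCF10A-SNAI1 cells.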
